A study of Mus musculus with 6 samples.

Results

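The genes described here were those of the AMPA receptor: the 4 pore-forming subunits Gria1, Gria2, Gria3 and Gria4, and 5 auxiliary proteins that sit in the receptor complex, Cacng2, Cacng3, Cacng8, Cnih2 and Shisa9. They were chosen by name, with earlier results of these data known. They were 9 of the 52550 genes in the deposited count table, and all 9 passed the filter on low counts, as did 17621 genes in all. In the splicing table they held 42 of 40961 listed events. The samples were hippocampi of male C57BL/6J wild-type mice. All had been injected at 8 weeks of age, in CA1 on both sides, with an adeno-associated virus: 3 control libraries had a control shRNA and are labelled wild type, and 3 libraries labelled hnRNP DL KD (also labelled hnRNP DL-/-, and named L-DL KD here by their label) had a virus with 4 tandem shRNAs against L-DL, the long isoform of the RNA-binding protein hnRNP D-like, each under an H1 promoter, which is active in all cell types. The control virus is described at a higher titre than the L-DL shRNA virus. Nothing in the labels says that the 3 libraries of a group came from separate animals, so p-values measure the spread between these libraries.

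AMPA receptors are tetramers of Gria subunits that carry most fast excitatory transmission in the hippocampus, and receptors that contain an edited Gria2 subunit pass little calcium. TARPs (the Cacng proteins), cornichons (Cnih2) and CKAMPs (the Shisa proteins) bind the tetramer, bring it to the synapse and slow or speed its closing. Each Gria gene also carries a pair of neighbouring exons, flip and flop, of which a transcript normally keeps only 1, and which alter how fast the channel desensitises. Flip forms predominate in CA3 pyramidal cells, while CA1 pyramidal cells hold both.

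The 8 flip and flop exons are printed here because the splicing results turn on which exon of a pair was kept. They were read from the GENCODE vM21 transcripts (GRCm38), each is coding sequence of 115 nt, and flop is the upstream exon of the pair in all 4 genes. The names follow 1 of the codons that differ, serine in flip and asparagine in flop. Of 38 residues compared, 8 differed in Gria1, 9 in Gria2 and Gria3 and 10 in Gria4. Capitals mark the bases that differ between flip and flop of the same gene.
Gria1 flip, chr11:57310608-57310722 (+): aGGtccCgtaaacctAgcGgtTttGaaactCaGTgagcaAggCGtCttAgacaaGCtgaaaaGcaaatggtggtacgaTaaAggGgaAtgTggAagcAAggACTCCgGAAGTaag
Gria1 flop, chr11:57309769-57309883 (+): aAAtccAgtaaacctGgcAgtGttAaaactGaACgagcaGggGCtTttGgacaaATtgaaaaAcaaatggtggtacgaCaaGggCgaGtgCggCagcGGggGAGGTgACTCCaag
Gria2 flip, chr3:80690404-80690518 (-): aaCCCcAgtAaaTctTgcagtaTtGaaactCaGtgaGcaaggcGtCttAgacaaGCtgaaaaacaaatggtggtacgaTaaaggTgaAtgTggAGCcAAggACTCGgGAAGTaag
Gria2 flop, chr3:80691320-80691434 (-): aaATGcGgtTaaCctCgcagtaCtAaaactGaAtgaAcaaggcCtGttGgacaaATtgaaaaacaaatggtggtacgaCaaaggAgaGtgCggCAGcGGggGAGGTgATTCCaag
Gria3 flip, chrX:41669501-41669615 (+): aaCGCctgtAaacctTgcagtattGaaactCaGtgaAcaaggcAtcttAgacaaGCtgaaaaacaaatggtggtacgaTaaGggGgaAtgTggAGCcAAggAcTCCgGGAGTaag
Gria3 flop, chrX:41654810-41654924 (+): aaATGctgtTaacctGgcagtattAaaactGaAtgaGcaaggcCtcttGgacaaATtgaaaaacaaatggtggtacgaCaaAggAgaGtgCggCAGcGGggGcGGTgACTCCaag
Gria4 flip, chr9:4427030-4427144 (-): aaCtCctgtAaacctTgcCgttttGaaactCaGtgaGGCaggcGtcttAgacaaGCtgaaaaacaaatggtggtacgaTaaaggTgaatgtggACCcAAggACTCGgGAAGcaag
Gria4 flop, chr9:4432773-4432887 (-): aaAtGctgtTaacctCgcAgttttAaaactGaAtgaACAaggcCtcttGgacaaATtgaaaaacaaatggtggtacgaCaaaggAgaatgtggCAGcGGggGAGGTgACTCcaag
Flip and flop differed at 36 bases in Gria1 and in Gria2, at 32 in Gria3 and at 31 in Gria4. The same exon was more alike across genes than the pair was within a gene: flip exons of different subunits were 87.8% to 92.2% identical and flop exons 87.8% to 94.8%, against 68.7% to 73.0% between flip and flop of 1 gene. How reads that match more than one Gria gene were assigned is not given in the sources used here, so part of the counts over these exons is uncertain.

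Gene counts summed to 16052529 to 16995425 in the control libraries and 16525467 to 17913064 in the L-DL KD libraries. Hnrnpdl, the targeted gene, had 2862, 3120 and 2689 counts in control and 3939, 2680 and 2904 in L-DL KD, and the groups overlapped (log2 fold change 0.03 ± 0.12 SE, adjusted p = 0.898). This count takes in every transcript of the gene and so does not separate the long isoform. The study reports less L-DL protein by immunoblot in hippocampus injected with the L-DL shRNA virus, which these libraries do not measure. In these data the direction of every difference below rests on the labels of the groups. Rbfox3, Snap25 and the other pan-neuronal markers were well expressed, but 9 of 10 were lower in L-DL KD and the neurofilament gene Nefl was higher. Their summed CPM (counts scaled to a common library size by edgeR's TMM method) was 5028 to 5300 in control and 3202 to 3768 in L-DL KD. All 8 microglial markers were higher (summed CPM 939 to 1178 against 2049 to 2563), 4 of 5 CA1 markers and 4 of 6 interneuron markers were lower, and of the 3 CA3 markers Bok was higher and Iyd and Cpne4 lower. All 3 excitatory markers were lower and all 3 oligodendrocyte precursor markers higher. Of 4 dentate granule markers, 2 (Dsp and Lct) were lower and 2 did not pass. Of those 2, C1ql2 overlapped between groups and Prox1 was higher in every L-DL KD library (log2 fold change 0.29, edgeR adjusted p = 0.0512). Choroid plexus markers differed widely between libraries within each group (summed CPM 408 to 4464 in control and 26.0 to 4996 in L-DL KD). L-DL KD replicate 1 stood a little apart from the rest of its group, with a correlation of log2 CPM of 0.975 and 0.966 to the others, which correlated at 0.984 with each other.

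Under TMM scaling the pore-forming subunits except Gria4 and the TARPs Cacng2, Cacng3 and Cacng8 were lower in L-DL KD, whereas under scaling by summed pan-neuronal counts only Cacng2 stayed lower. With edgeR's quasi-likelihood test and Benjamini-Hochberg adjustment over all genes tested, 6 of the 9 members were lower and 1 was higher at an adjusted p under 0.05, against 15.0% of all tested genes lower and 15.6% higher. The median log2 fold change of the 9 members was -0.50, beside 0.01 over all tested genes. CPM values of the groups did not overlap for 7 of the 9 members, where 47.2% of all tested genes had groups that did not overlap. In bulk hippocampus, fewer cells of a type and less RNA per cell cannot be told apart.

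Gria1, a subunit that is delivered to CA1 synapses during potentiation, had 922, 827 and 868 CPM in control and 688, 607 and 557 in L-DL KD. Every L-DL KD library was below every control library, and Gria1 fell to 0.708 of the control level (log2 fold change -0.50 ± 0.09 SE, adjusted p = 0.00553). Gria2, the subunit that limits calcium entry, had 640, 644 and 710 CPM in control and 474, 467 and 432 in L-DL KD. It fell to 0.689 of control with no overlap between groups (log2 fold change -0.54 ± 0.07 SE, adjusted p = 0.00153). Gria3 was lower by less, at 187, 176 and 187 CPM in control and 150.5, 151 and 127 in L-DL KD (log2 fold change -0.36 ± 0.08 SE, adjusted p = 0.0134). Its call was lost without control replicate 1 or without control replicate 3 (adjusted p up to 0.0539). Gria4, which is prominent in interneurons, had 51.7, 43.4 and 49.1 CPM in control and 48.8, 44.5 and 39.3 in L-DL KD. The Gria4 groups overlapped and the difference did not pass the test (log2 fold change -0.12 ± 0.10 SE, adjusted p = 0.424).

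The fold changes of the 3 TARPs among the members were below those of every pore-forming subunit; these differences between genes were not tested. Cacng2 (stargazin), which anchors receptors at the postsynaptic density, had 52.1, 57.2 and 53.2 CPM in control and 24.8, 24.1 and 28.3 in L-DL KD. It fell to 0.475 of control (log2 fold change -1.07 ± 0.09 SE, adjusted p = 0.000238), and both groups were tight. Cacng3 had 53.1, 49.7 and 46.6 CPM in control and 26.5, 33.9 and 22.9 in L-DL KD (log2 fold change -0.84 ± 0.14 SE, adjusted p = 0.00362). Cacng8, the TARP typical of the hippocampus, had 97.6, 85.3 and 84.5 CPM in control and 64.4, 52.5 and 45.8 in L-DL KD (log2 fold change -0.72 ± 0.13 SE, adjusted p = 0.00445). Neither gene had overlapping groups, and all 3 calls held with each library left out in turn. Of the other TARPs, Cacng7 was also lower, from 158 ± 7.74 to 119 ± 7.58 CPM (SD, n = 3; log2 fold change -0.41 ± 0.07 SE, adjusted p = 0.00485; 0.13 under pan-neuronal scaling). Cacng4 (0.12 ± 0.14 SE, adjusted p = 0.539) and Cacng5 (0.26 ± 0.27 SE, adjusted p = 0.496) had overlapping groups and did not pass, so not all TARPs measured were called lower. Under pan-neuronal scaling, edgeR called both higher, Cacng4 at 0.66 (adjusted p = 0.00232) and Cacng5 at 0.80 (adjusted p = 0.0205). Differences between TARPs were not tested.

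The other auxiliary members were a cornichon and a CKAMP. Cnih2, which slows receptor closing and aids export from the endoplasmic reticulum, had 337, 311 and 286 CPM in control and 305, 252 and 224 in L-DL KD. The first L-DL KD library lay within the control range, and the difference did not pass the test (log2 fold change -0.26 ± 0.12 SE, adjusted p = 0.136). Without L-DL KD replicate 1 the log2 fold change was -0.38 with an adjusted p of 0.00933. Shisa9 (CKAMP44), known for strengthening receptor desensitisation in dentate granule cells, was the only member that rose, from 64.6, 62.1 and 61.3 CPM in control to 68.5, 81.5 and 87.0 in L-DL KD. Its groups did not overlap (log2 fold change 0.33 ± 0.09 SE, adjusted p = 0.0303), but the call held in only 1 of the 6 fits that left out a library. The adjusted p there ranged from 0.00168, without L-DL KD replicate 1, to 0.101.

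**Figure D1:**
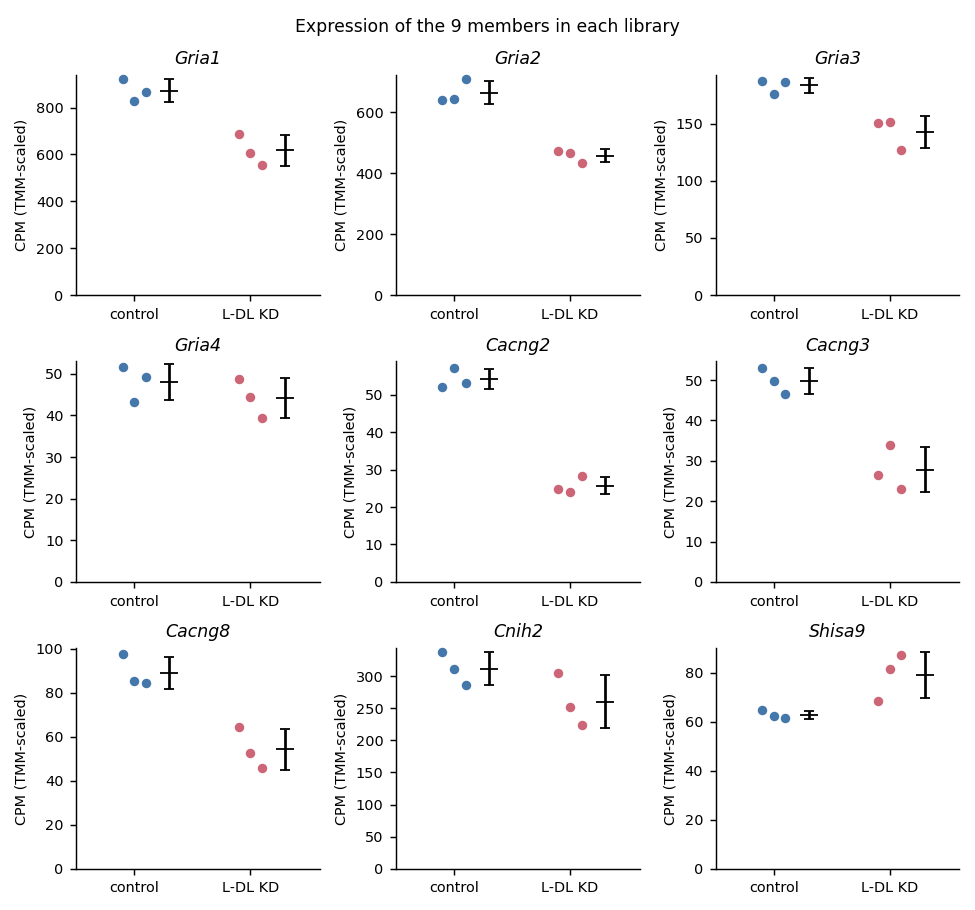
Expression of the 9 members, with TMM-scaled CPM on the vertical axis of each panel and the 2 groups on the horizontal axis. Points are libraries, and bars give the mean and SD of 3 libraries. On this scale the groups separate in 7 panels, downward in L-DL KD for 6 genes (of which only Cacng2 stays lower under pan-neuronal scaling) and upward for Shisa9, and overlap for Gria4 and Cnih2.

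The size and sign of these differences depended on the scale against which they were read. When each library was scaled by the summed counts of the pan-neuronal list, which fell in L-DL KD, the median log2 fold change over all tested genes moved from 0.01 to 0.55, and 1 of the 9 members was lower and 3 were higher, beside 2.78% and 57.2% of all tested genes. Gria1 (0.05 ± 0.08 SE, adjusted p = 0.650) and Gria2 (0.01 ± 0.08 SE, adjusted p = 0.929) were then close to 0 on the log2 scale. Gria3 was at 0.18 ± 0.08 SE with an adjusted p of 0.0798. Cacng2 was the member that stayed lower (-0.52 ± 0.15 SE, adjusted p = 0.0122), and Cacng3 (-0.30 ± 0.13 SE) and Cacng8 (-0.18 ± 0.11 SE) no longer passed, with adjusted p-values of 0.0754 and 0.202. Gria4 (0.42 ± 0.10 SE, adjusted p = 0.00642), Cnih2 (0.28 ± 0.10 SE, adjusted p = 0.0391) and Shisa9 (0.89 ± 0.14 SE, adjusted p = 0.000682) were higher on this scale. The summed pan-neuronal level moved with the members, and its part in their differences was not tested.

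**Figure D2:**
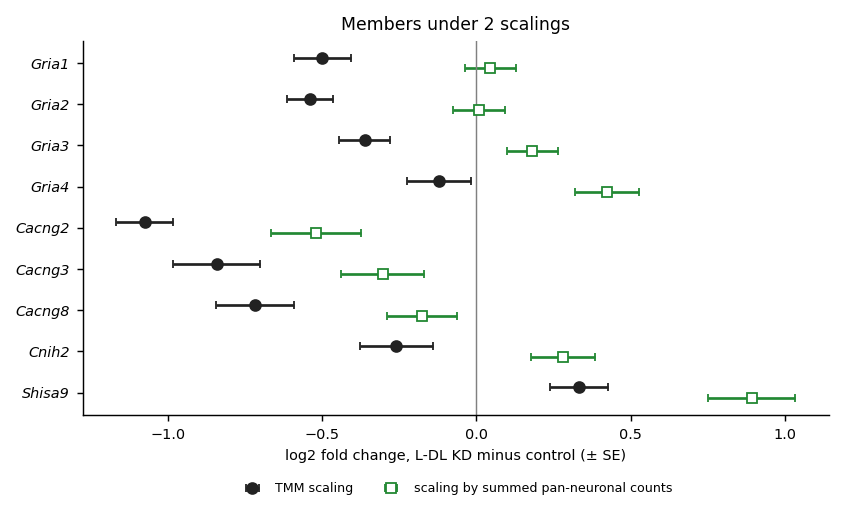
Log2 fold change of each member, L-DL KD minus control, on the horizontal axis, with the members on the vertical axis and bars of 1 SE. Filled circles show TMM scaling and open squares show scaling by summed pan-neuronal counts. The squares sit to the right of the circles for every gene, with Gria1 and Gria2 near 0, Cacng2 at -0.52 and Shisa9 at 0.89.

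Levels of different genes were compared per length, as TMM-scaled CPM per kb of annotated exon. In control, Cnih2 was at 227 ± 18.6 CPM per kb (SD, n = 3) and Gria1 at 144 ± 7.94. Gria2 (42.7 ± 2.52) and Cacng8 (38.0 ± 3.15) followed, and their control libraries ranged from 41.2 to 45.6 and from 36.0 to 41.6 CPM per kb. Gria3 (18.6 ± 0.645) and Cacng3 (17.9 ± 1.16) did not differ beyond their spread. Shisa9 was at 11.96 ± 0.325, Cacng2 at 9.83 ± 0.493 and Gria4 at 7.62 ± 0.678. In L-DL KD, Cacng2 was lowest at 4.67 ± 0.409, below Gria4 at 7.01 ± 0.753. These lengths are unions of all annotated exons, so a gene with a long untranslated end that is little used reads low.

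Within the 4 subunits, the proportions do not depend on scaling between libraries, but they do depend on the length taken for each gene. Of their summed counts per length, Gria1 made up 67.6% ± 1.30 (SD, n = 3) in control and 66.7% ± 1.20 in L-DL KD, and Gria2 20.1% ± 1.29 and 19.3% ± 0.931. The groups overlapped for both genes, each with a p of 0.4 in a two-sided exact permutation test. Gria3 took 8.60%, 8.81% and 8.77% of the sum in control and 9.12%, 10.02% and 9.26% in L-DL KD. Gria4 took 3.71%, 3.39% and 3.61% in control and 4.63%, 4.61% and 4.49% in L-DL KD, a difference of 1.01 percentage points. All L-DL KD libraries lay above all control libraries for both minor subunits, where the exact permutation p of 0.1 is the smallest that 3 against 3 libraries can give. The ratio of Gria1 to Gria2 per length was 3.39 ± 0.289 in control and 3.46 ± 0.232 in L-DL KD, with overlapping groups (exact permutation p = 0.5). The size of this ratio and of the shares rests on the annotated exon lengths, 6043 nt for Gria1 and 15548 nt for Gria2. Without division by length, Gria1 made up 49.3% of the summed counts in control and 48.9% in L-DL KD, and Gria2 37.6% and 36.3%.

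Auxiliary proteins were then set against the summed subunits per length. The 3 member TARPs together stood at 0.318, 0.318 and 0.289 of the Gria sum in control and at 0.248, 0.255 and 0.237 in L-DL KD, a ratio of 0.800 between the group means with no overlap. Cnih2 per Gria was 1.07 ± 0.0854 in control and 1.24 ± 0.0828 in L-DL KD. Shisa9 per Gria was 0.0558, 0.0584 and 0.0542 in control and 0.0781, 0.102 and 0.119 in L-DL KD, or 1.78 times the control mean. Each of these 3 ratios separated the groups, with an exact permutation p of 0.1, the smallest possible here.

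By Pearson correlation of log2 CPM over the 6 libraries, among 11017 genes with a mean of at least 10 CPM, the genes whose pattern was closest to the summed subunits were Sh3gl2 (r = 0.9998), Sv2b (0.9996) and Dnm1 (0.9991). The closest to Gria1 were Actl6b, Plcb4 and Cdh11, to Gria2 Tmed4, Dpp8 and Tmem44, and to Gria3 Rims2, Creg2 and Sort1, with r from 0.9976 to 0.9993. Gria4 was closest to Neurl1b (0.9905), Agrn (0.978) and Tbcc (0.977). All points share 2 groups of 3 libraries, and these r values are descriptions without a test.

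Splicing was read from the deposited junction counts, which give for every event the reads of an inclusion form and of a skipping form in each library, with no replicate number. PSI, the share of the inclusion form, was taken from these counts per effective length of each form. Of the 42 listed events, 31 were skipped exons, 9 mutually exclusive exons, 1 a retained intron and 1 an alternative 5′ splice site, and Cacng2 and Cacng3 had none listed. Enough reads were present to test 21 events, and none passed an adjusted p of 0.05 in edgeR's quasi-likelihood test, which called 48 of 18829 tested events, or 0.255%. The limma alternative also called no member event, and 9 of the 21 were under an unadjusted p of 0.05 in each tool. Over all events, 13.3% were under that threshold in the edgeR test. At an unadjusted p under 0.001 there were 4 member events, against 0.977% of all events tested, and 3 of the 4 share reads at the Gria2 flip/flop pair. PSI of the groups did not overlap for 12 of the 21, beside 18.4% of all tested events. Gria2 had 7 tested events, all at or next to its flip/flop pair, and all were among these 12. It also held 6 of the 9 events under an unadjusted p of 0.05 in the edgeR test. Many of these events share reads, as do those of the Gria3 pair, so neither count is one of independent events.

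The clearest differences lay in the flip/flop pairs of Gria1 and Gria2, whose exons are printed above. In Gria1, flop junction reads numbered 973, 857 and 933 in control and 961, 949 and 745 in L-DL KD. Flip reads numbered 440, 502 and 467 in control and 280, 138 and 144 in L-DL KD, so that the raw flip counts separated the groups and the raw flop counts did not. The flop share of the pair was 68.9%, 63.1% and 66.6% in control and 77.4%, 87.3% and 83.8% in L-DL KD, a difference of 16.7 percentage points between means of 66.2% ± 2.93 and 82.8% ± 5.002 (SD, n = 3). The log2 change in the odds of flop was 1.32 ± 0.28 SE (edgeR, unadjusted p = 0.000456, adjusted p = 0.0765). Leaving out the first listed L-DL KD value brought this event past the threshold.

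In Gria2, flop reads numbered 652, 562 and 463 in control and 528, 476 and 437 in L-DL KD, and flip reads 432, 406 and 396 in control and 182, 168 and 93 in L-DL KD. As in Gria1, the raw flip counts were apart and the raw flop counts overlapped. These reads were not scaled to depth. Junction reads over all events summed to 6760349 to 7089670 in control and 7153540 to 7939931 in L-DL KD, so overlap of the flop counts may depend on scaling. The flop share was 60.1%, 58.1% and 53.9% in control and 74.4%, 73.9% and 82.5% in L-DL KD, with means of 57.4% ± 3.18 and 76.9% ± 4.80 (SD, n = 3). The log2 change in the odds of flop was 1.31 ± 0.26 SE (edgeR, unadjusted p = 0.000331, adjusted p = 0.0685). For both genes the PSI groups did not overlap, with the smallest exact permutation p that is possible (0.1).

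Gria3 differed from the others in its starting point, since most of its transcripts kept flip. Its flop share was 16.4%, 14.4% and 20.4% in control and 22.0%, 25.0% and 26.3% in L-DL KD. The groups were just apart, and the log2 change in the odds was 0.65 ± 0.32 SE (edgeR, unadjusted p = 0.0634, adjusted p = 0.406). Gria4 had 41 to 50 reads over the pair in any library. Its flop share was 72.0%, 53.7% and 75.0% in control and 66.0%, 64.4% and 74.4% in L-DL KD, with overlapping groups and a log2 change of 0.06 ± 0.63 SE (edgeR, adjusted p = 0.985). No difference was detectable at this depth, and differences between genes in the size of the shift were not tested. CA3 markers summed to 157 to 176 CPM in control and 148 to 167 in L-DL KD, interneuron markers to 582 to 658 and 214 to 383. The CA3 markers did not move together: Bok stood at 1.85 of its control level, Cpne4 at 0.369 and Iyd at 0.176, with a median log2 fold change of -1.44. The part of cell makeup in the flop shares was not tested.

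**Figure D3:**
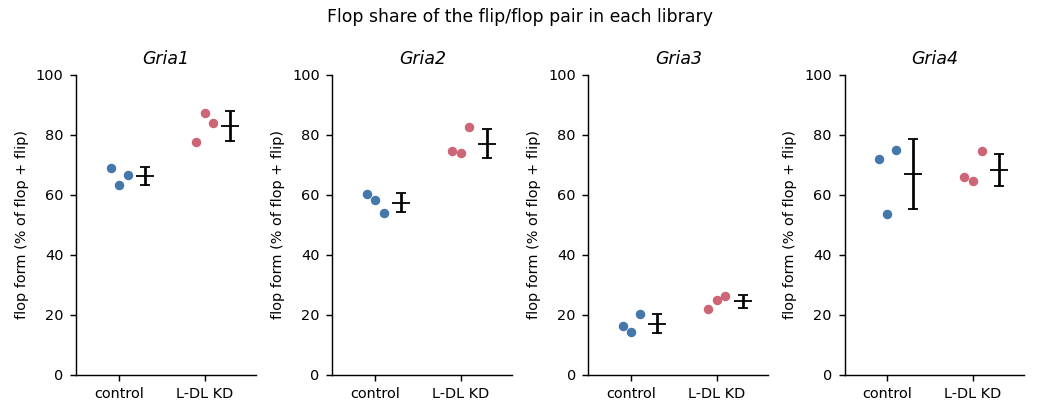
Flop form as a percentage of the flop and flip forms together on the vertical axis, for Gria1 to Gria4, with the groups on the horizontal axis. Points are libraries and bars give the mean and SD of 3. The L-DL KD points lie above the control points for Gria1, Gria2 and Gria3 and overlap them for Gria4, and Gria3 is the gene below 30% in every library.

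Further Gria2 events at the same place count largely the same reads and are not independent of the pair. Inclusion of flip between flop and the next exon had a PSI of 0.254, 0.323 and 0.324 in control and 0.164, 0.152 and 0.110 in L-DL KD (log2 change in odds -1.37 ± 0.29 SE, edgeR adjusted p = 0.0781). Inclusion of flop ahead of flip had a PSI of 0.425, 0.473 and 0.390 in control and 0.592, 0.564 and 0.682 in L-DL KD (log2 change 1.06 ± 0.30 SE, adjusted p = 0.167). Both values lay further toward flop in every L-DL KD library, and neither event passed the threshold.

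Reads that joined the exons on either side of the pair, with neither flip nor flop, were scarce in Gria2. They numbered 0, 0 and 3 in control and 6, 7 and 15 in L-DL KD, so all L-DL KD values were higher. Against flip inclusion the log2 change in the odds of inclusion was -4.60 ± 0.99 SE (edgeR, unadjusted p = 0.000553, adjusted p = 0.0801), and against flop inclusion -3.29 ± 0.93 SE (adjusted p = 0.164). Both values rest on the 3 reads of 1 control library: without it the control counts were 0, and the fitted changes of -7.87 (adjusted p = 0.219) and -6.66 (adjusted p = 0.252) then depend on the prior count of the fit. In Gria3 such reads numbered 2, 0 and 0 in control and 1, 0 and 0 in L-DL KD, and in Gria4 0 in each control library and 0, 2 and 0 in L-DL KD. Transcripts without either exon were thus at the limit of detection in those genes.

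A short exon of Gria2 lies just upstream of flop, at chr3:80691703-80691743 on the minus strand (GRCm38). It is 41 nt long, so it does not keep the reading frame, and GENCODE vM21 places it in a transcript classed under nonsense-mediated decay. It is shown as the least included exon among the member events under an unadjusted p of 0.05.
Gria2 41 nt exon: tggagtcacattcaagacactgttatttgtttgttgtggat
Its inclusion reads numbered 11, 12 and 15 in control and 3, 0 and 3 in L-DL KD, against 184 to 338 reads that skipped it. PSI was 0.0250, 0.0315 and 0.0515 in control and 0.00908, 0 and 0.0127 in L-DL KD, and the groups did not overlap (log2 change in odds -2.24 ± 0.71 SE, edgeR unadjusted p = 0.00808, adjusted p = 0.216). The PSI of 0 rests on 215 skipping reads, and the 3 inclusion reads that a count of 0 allows would give a PSI of up to 0.0109, for counting error only.

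Shisa9 has a 48 nt exon at chr16:12252785-12252832 on the plus strand (GRCm38), which keeps the frame and is coding in 1 annotated transcript. It is shown as the tested cassette exon of the only member with higher expression in L-DL KD.
Shisa9 48 nt exon: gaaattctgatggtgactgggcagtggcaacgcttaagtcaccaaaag
Reads including it numbered 24, 49 and 29 in control and 41, 40 and 36 in L-DL KD, and reads skipping it 15, 8 and 13 in control and 4, 5 and 2 in L-DL KD. PSI was 0.549, 0.823 and 0.629 in control and 0.886, 0.859 and 0.932 in L-DL KD, with no overlap but a wide control spread (log2 change in odds 1.94 ± 0.77 SE, edgeR unadjusted p = 0.0270, adjusted p = 0.321).

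**Figure D4:**
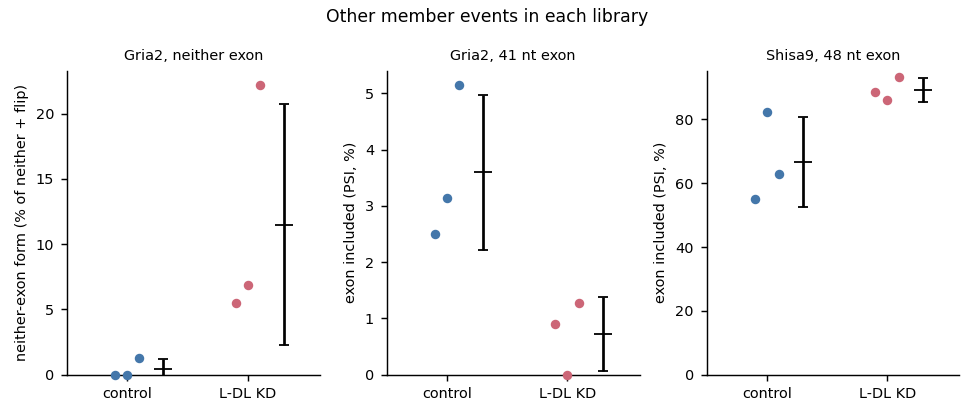
Share of 3 further forms on the vertical axis, in percent, with the groups on the horizontal axis: Gria2 reads with neither exon as a share of the neither-exon and flip forms, PSI of the Gria2 41 nt exon, and PSI of the Shisa9 48 nt exon. Points are libraries and bars give the mean and SD of 3, with the control bar of the first panel cut off at 0. In each panel the groups are apart, with 1 L-DL KD library at 22.2% in the first and the control libraries of Shisa9 spread from 54.9% to 82.3%.

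The other named events held few reads of the minor form. In Cacng8, skipping of an 84 nt coding exon was seen in 16, 6 and 9 reads in control and 4, 1 and 4 in L-DL KD, against 249 to 454 inclusion reads (log2 change 1.15 ± 0.61 SE, edgeR adjusted p = 0.446). In Gria1, skipping of a 162 nt exon was seen in 0, 1 and 0 reads in control and 3, 11 and 0 in L-DL KD, with overlapping groups (edgeR unadjusted p = 0.0187, adjusted p = 0.290). The 5 other mutually exclusive pairs, 1 in Gria1, 1 in Gria2 and 3 in Cnih2, each joined exons that also occur together in a transcript: flop and the exon after it in Gria2, and neighbours included in nearly all reads in Gria1 and Cnih2. Their ratio does not measure an exclusive choice, and none was under an unadjusted p of 0.05. Of the 31 skipped-exon events, 15 had a mean PSI of at least 0.99 in both groups.

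The wider AMPA receptor machinery was followed in a list of 34 partner genes arranged by role. By the same edgeR test, 17 were lower, 4 were higher and 13 did not pass, with a median log2 fold change of -0.24; over all tested genes 15.0% were lower and 15.6% higher, and the median was 0.01. Scaled by summed pan-neuronal counts, 5 were lower and 17 higher, beside 2.78% and 57.2% of all tested genes. The same shares apply to the counts by role that follow, each over at most 10 genes. Among 10 other auxiliary subunits, 4 were lower and 2 higher (1 and 7 under pan-neuronal scaling). Shisa6 (CKAMP52), a subunit of the same family as Shisa9, fell from 206, 179 and 198 CPM in control to 83.1, 72.6 and 68.4 in L-DL KD (log2 fold change -1.38 ± 0.09 SE, adjusted p = 0.000116). Cnih3, the other cornichon of the brain receptor, rose from 61.6, 47.0 and 50.5 CPM to 101, 80.9 and 90.1 (log2 fold change 0.78 ± 0.12 SE, adjusted p = 0.00264). Shisa7, a further CKAMP, was lower, from 264 ± 12.7 to 198 ± 28.5 CPM (SD, n = 3; log2 fold change -0.42 ± 0.11 SE, adjusted p = 0.0202; 0.14 under pan-neuronal scaling). Under TMM scaling Shisa9 was thus higher while Shisa6 and Shisa7 were lower, and Cnih3 was higher while Cnih2 did not pass. The directions of Shisa6 and Cnih3 held under scaling by pan-neuronal counts, at -0.84 for Shisa6 and 1.33 for Cnih3. Prrt2 also rose, but from 0.740 to 1.71 CPM in control to 2.20 to 3.64 in L-DL KD, at the low end of detection (adjusted p = 0.0492), and the call was lost in 4 of 6 omissions of a library (without control replicate 1 or 2, or L-DL KD replicate 2 or 3).

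Of the 6 genes that act in receptor assembly in the endoplasmic reticulum, 2 were lower and 1 was higher (1 and 3 under pan-neuronal scaling). Frrs1l, which binds subunits before they leave that compartment, fell from 362, 344 and 354 CPM to 201, 161 and 148 (log2 fold change -1.06 ± 0.11 SE, adjusted p = 0.000483). Of 9 extracellular organisers, 6 were lower and 1 higher (2 and 2 under pan-neuronal scaling). The neuronal pentraxins, which cluster receptors from outside, were lower for Nptx1 (775 ± 15.2 against 535 ± 21.2 CPM, SD, n = 3) and Nptx2 (48.9 ± 10.1 against 25.5 ± 5.999). The olfactomedins, secreted proteins that bind the receptor, were lower for Olfm1 (842 ± 8.06 against 430 ± 68.8 CPM) and Olfm3 (14.8 ± 1.59 against 7.22 ± 0.849), as were Nrn1 (log2 fold change -0.66) and Brinp1 (-0.54). Olfm2, of the same family, went the other way, from 29.7 ± 1.71 to 38.6 ± 2.88 CPM (SD, n = 3; log2 fold change 0.38 ± 0.09 SE, adjusted p = 0.0174), and was also higher under pan-neuronal scaling (0.92). Under pan-neuronal scaling Olfm1 and Olfm3 were still lower, Nptx2 (-0.41) and Nrn1 (-0.11) no longer passed, and Nptx1 and Brinp1 stood at 0.017 and 0.0028 on the log2 scale.

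Of 7 trafficking and anchoring genes, 4 were lower and none was higher (1 and 3 under pan-neuronal scaling). Grip2, a scaffold that binds the tail of Gria2, fell from 17.0, 17.4 and 17.0 CPM to 10.2, 6.22 and 5.13 (log2 fold change -1.25 ± 0.24 SE, adjusted p = 0.00626), and Akap5, which anchors kinases and phosphatases at the receptor, fell by 0.76 on the log2 scale (adjusted p = 0.0174). The Akap5 call was lost without control replicate 1 (adjusted p = 0.0689) or control replicate 3 (0.0533) and under pan-neuronal scaling. Of the 2 RNA editing enzymes, Adarb1, which edits the Gria2 pore codon, was at 196 ± 5.78 CPM in control and 162 ± 6.96 in L-DL KD (SD, n = 3; log2 fold change -0.27 ± 0.06 SE, adjusted p = 0.0145; log2 fold change 0.28 under pan-neuronal scaling), and Adar did not pass (-0.10 ± 0.09 SE, adjusted p = 0.436). Editing itself was not measured here.

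**Figure D5:**
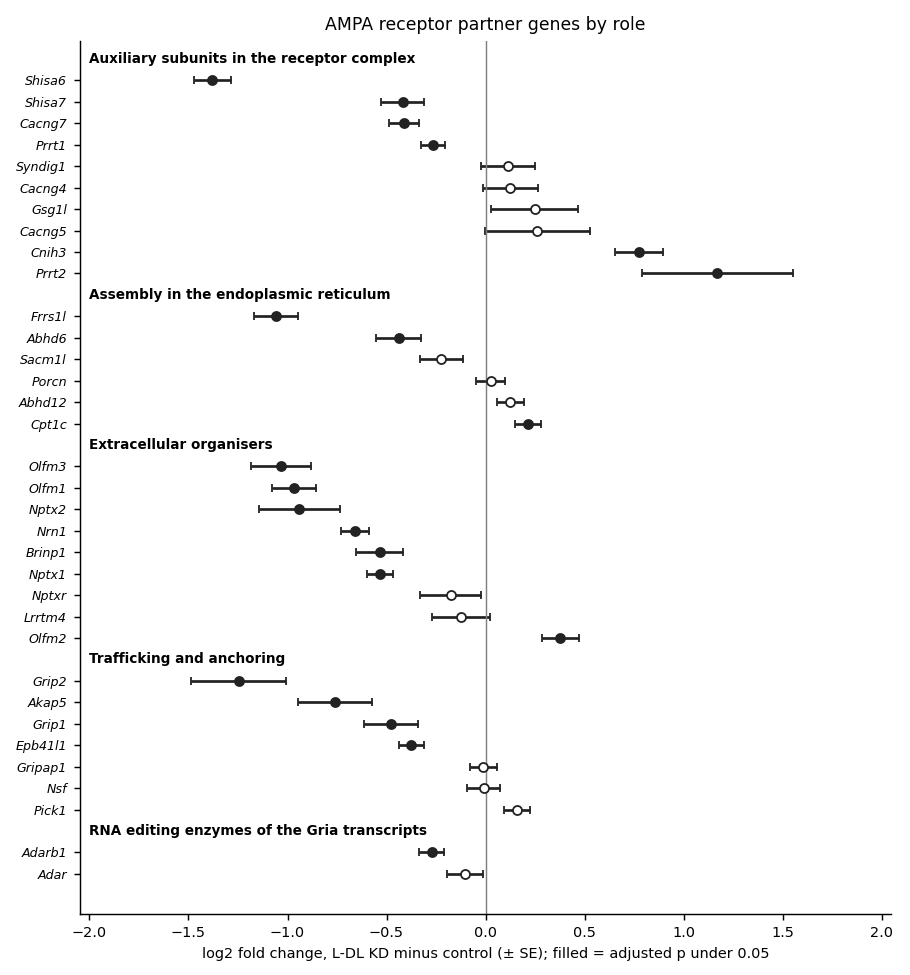
Log2 fold change, L-DL KD minus control, on the horizontal axis for the 34 partner genes on the vertical axis, grouped by role, with bars of 1 SE and filled points at an adjusted p under 0.05 under TMM scaling. Shisa6 lies furthest to the left and Prrt2, at 1.17 with an SE of 0.38, furthest to the right, and Cnih3 is at 0.78.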

How the data were processed

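Total RNA of mouse hippocampus was made into oligo(dT)-selected libraries (NEBNext Ultra, 150 nt read pairs). The submitters' processing notes name HISAT2 2.1.0, HTSeq 0.6.1 and Bowtie 1.1.2 and the build mm10 (GRCm38). Strand-specific counting is not given in the sources used here. The authors deposited raw read counts per gene and, from rMATS, inclusion and skipping junction counts with effective lengths per event. The splicing columns are the 2 sample sets of rMATS, read as L-DL KD and control in the order that the study's definition of the PSI difference gives. Differences between libraries in junction counts per gene were correlated with those in gene counts, over 5228 genes. These correlations, which are not of the counts themselves, were 0.215 to 0.889 within a group and -0.756 to -0.406 across groups. The authors' own p-values, FDR and PSI differences in that table were not used.

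Genes that reached 10 counts in 3 or more libraries were tested with edgeR 4.0.16 (R 4.3.3; TMM, quasi-likelihood, Benjamini-Hochberg). Events with a mean of at least 20 junction reads and 1 of each form were tested with edgeR on inclusion and skipping counts, with an effect for each library. DESeq2 1.42.0 and limma 3.58.1 were alternatives. Both tests were also run on simulated counts with a fixed spread for all genes or events, which need not match the spread of these libraries. No result here rests on that run. Exact permutation tests were two-sided. Exon sequences, lengths and coordinates came from GENCODE vM21. Members, gene lists and tests were chosen with earlier results of these data known. Text names all 9 members, member events with an unadjusted p under 0.05, every mutually exclusive pair, the most covered other event of a remaining member, and at most 12 partners that passed with groups apart, by fold change; Adarb1, Adar, Cacng4, Cacng5, Cacng7, Shisa7 and Olfm2 were added after their values were seen. Counting error and the spread of 3 libraries limit every value.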

Additional observations from a re-analysis of the deposited data

How the results depend on the processing

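The count of 7 called members and that of 21 called partners stayed within 1.5 times of these values under scaling by library size, DESeq2, no filter on low counts, a minimum of 50 counts and each omission of a library (members 5 to 8, partners 14 to 23). Scaling by summed pan-neuronal counts gave 4 called members and 10563 called genes in place of 5379, and by its construction it turned the log2 fold changes of Gria1 (0.046), Gria2 (0.0096), Gria3 (0.18), Gria4 (0.42), Cnih2 (0.28), Brinp1 (0.0028) and Nptx1 (0.017) positive. Omitting single libraries gave 3498 to 6477 called genes, with the 3 fits that left out a control library lowest (3498 to 3541). For splicing, an unadjusted p under 0.001 passed 4 member events and 184 events in all, limma called 0 of 18829 events with 2469 under an unadjusted p of 0.05, and omissions gave 0 to 1 member events, the Gria1 flip/flop pair, and 0 to 52 events in all, so the count of 48 rests on single libraries (3, 5 and 0 without each control value, and 52, 3 and 16 without each L-DL KD value). Omissions turned the sign of the Gria4 flip/flop change (-0.36 to 0.32 on the log2 odds scale) and of 2 Cnih2 pairs (-0.030 to 0.087 and -0.33 to 0.17), none of which was called. PSI without effective lengths moved the difference for flip inclusion after flop in Gria2 from -0.16 to -0.20, and the Gria4 share of the subunits without division by length differed by 0.782 points. The cause of these changes was not tested.

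The fit with a replicate block called 7 members, 19 partners and 4635 genes. It brought Cnih2 to an adjusted p of 0.0444 and took Shisa9 to 0.0578. Libraries of the same number deviated from their group means with correlations of 0.054, 0.127 and -0.107, so the numbers were not taken as pairs, and not every library correlated best with its own number. For splicing, no paired analysis was possible because the columns carry no replicate numbers.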
